A study of Mus musculus with 6 samples.

Results

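MHC class I heavy chains and their shared light chain, beta-2-microglobulin, were examined in mammary tumours of mice. The 9 genes named were H2-K1, H2-D1, B2m, H2-T23, H2-M3, H2-Q10, Cd1d1, Mr1 and Fcgrt. Their members were all non-control probe sets annotated to exactly 1 of these symbols, which gave 22 of the 22626 probe sets tested and covered 8 of the 9 genes. H2-D1 had 9 probe sets, H2-K1 had 4, B2m, Cd1d1 and Mr1 had 2 each, and H2-M3, H2-Q10 and Fcgrt had 1 each. H2-T23 had none, because the 2 probe sets annotated to it also carry a second symbol. The samples were 3 tumours of AKR F1 females, from a cross of AKR/J mice with PyMT mice, and 3 tumours of DBA F1 females, from a cross of DBA/2J mice with PyMT mice. Both crosses thus carried PyMT, the polyomavirus middle T antigen, and the animals were adult. The labels do not name the promoter of the transgene or the strain of the PyMT parent, and do not say whether the 6 samples are 6 animals, so the p-values refer to the spread among samples, which may be technical. RNA of each tumour was read on 1 Affymetrix array, and values are on the log2 scale as deposited.

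A class I molecule is a heavy chain held at the cell surface by B2m, with a peptide made by the proteasome, carried into the endoplasmic reticulum by the Tap transporter and loaded there. CD8 T cells read the peptide, and natural killer cells respond to cells that have lost class I. H2-K1 and H2-D1 encode classical heavy chains, which nearly all nucleated cells display and which interferons induce. The other members encode relatives with narrower roles, described with their values below. AKR/J and DBA/2J mice are known to carry different H2 haplotypes, k and d, so their classical heavy chain genes differ in sequence. For each heavy chain probe set, a sequence variant under the probes and a difference in RNA level cannot be told apart here.

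Array medians ran from 7.52 to 7.57, and the SD of all values ran from 1.76 to 1.91 on the AKR arrays and from 1.98 to 2.02 on the DBA arrays. The AKR array with the smallest spread was replicate 2, and DBA replicate 1 had the highest mean of 5 skeletal muscle genes (11.76, against 6.06 on each of the other DBA arrays and 8.45 to 10.04 on the AKR arrays). Results are therefore also given without these arrays. A list of 7 epithelial markers averaged 11.64 to 11.99 on the AKR arrays and 11.54 to 11.83 on the DBA arrays. No detection calls were used, and 4 Y-linked genes, which female tissue lacks, read 3.93 to 6.69, so values in that range can be background. Fewer cells of a type and less RNA per cell cannot be told apart in these bulk samples.

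Class I heavy chain and B2m values were lower in AKR F1 than in DBA F1 tumours at 4 probe sets, 3 of H2-D1 and 1 of B2m, and none was called higher, by limma's test with Benjamini-Hochberg adjustment over all probe sets at 0.05. The background share of calls was 0.0972% of all probe sets in either direction and 0.0619% lower in AKR F1 tumours. Of the 22 member probe sets, 20 had a negative difference (AKR minus DBA), where the share over all probe sets was 45.4%, and 12 were lower by at least 1 log2 unit, where it was 2.72%. The 12 all belonged to H2-K1, H2-D1 and B2m. The median difference was -1.14 over the 22 members and 0.05 over all probe sets, and -0.21 in the brightest decile of probe sets. The crosses did not overlap at 17 member probe sets, against 39.2% of all probe sets, and 15 of these were lower in AKR F1 tumours, against 15.8%.

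The number of members called moved with single arrays, as did the share of all probe sets called, given in brackets. Leaving out AKR replicate 1 gave 0 (0.0044%), AKR replicate 2 gave 1 (0.0088%) and AKR replicate 3 gave 3 (0.0486%). On the DBA side, 12 were called once replicate 1 was left out (1.16%), 3 for replicate 2 (0.115%) and 0 for replicate 3 (0.0044%). The 1 called with AKR replicate 2 left out was an H2-D1 probe set higher in AKR F1 tumours. Without both AKR replicate 2 and DBA replicate 1, a setting chosen after seeing the data, 15 members were called (2.90% of all probe sets).

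**Figure D1:**
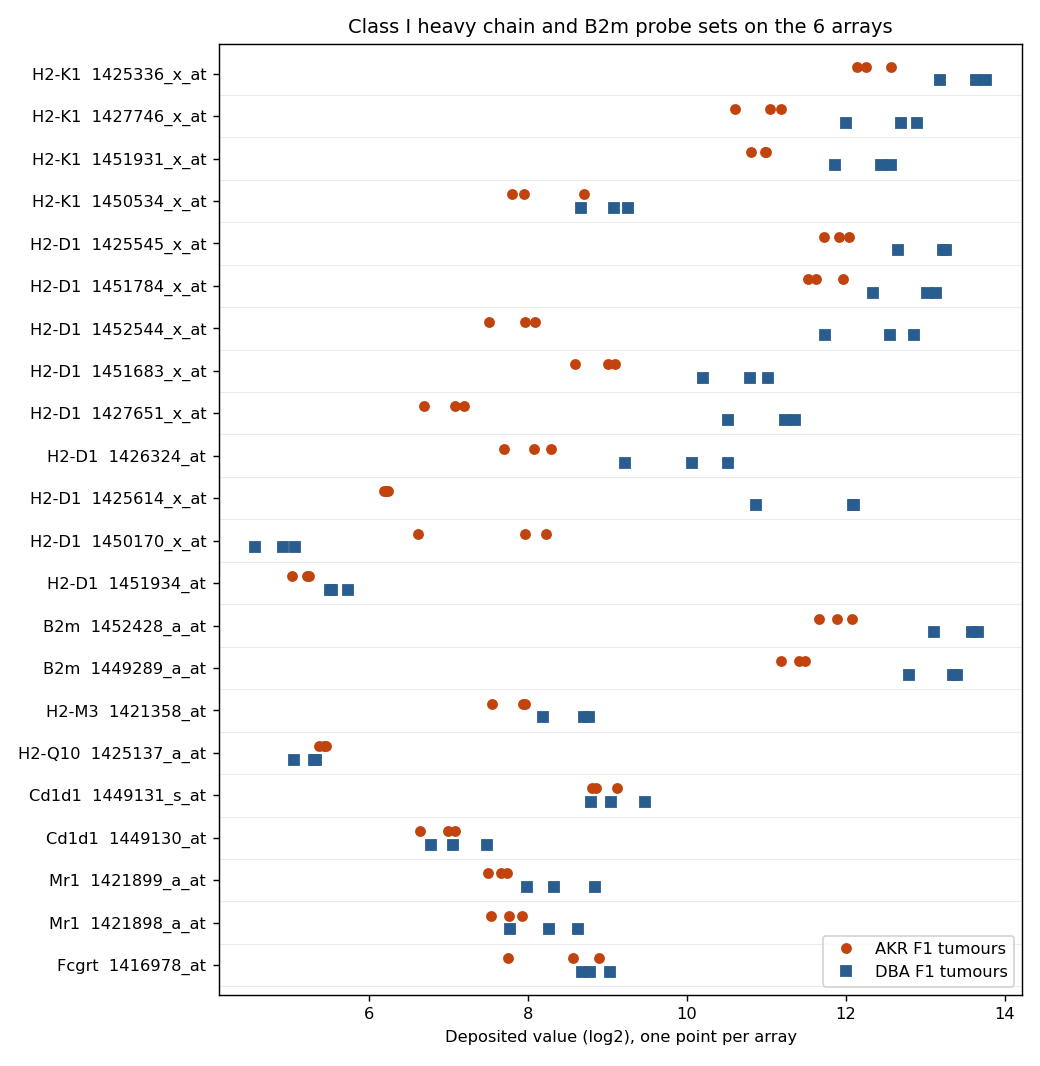
Deposited log2 value (horizontal axis) of each of the 22 member probe sets (rows), with 1 point per array, AKR F1 tumours as circles above DBA F1 tumours as squares. At 15 probe sets all AKR points lie left of all DBA points, at H2-D1 1450170_x_at and H2-Q10 they lie right, and at 5 the crosses overlap.

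B2m encodes the light chain shared by all these heavy chains, and it lies on chromosome 2, apart from the H2 genes on chromosome 17. Its brighter probe set, 1452428_a_at, read 12.08, 11.67 and 11.89 in AKR F1 tumours, against 13.11, 13.58 and 13.66 in DBA F1 tumours. Its other probe set, 1449289_a_at, read 11.48, 11.18 and 11.41 in AKR F1 tumours, against 12.80, 13.40 and 13.35 in DBA F1 tumours. At both probe sets the highest AKR value lay more than 1 log2 unit below the lowest DBA value, which was DBA replicate 1 each time. The first differed by -1.57 (SE 0.190, 2.98-fold, adjusted p = 0.0568 by limma) and the second by -1.82 (SE 0.193, 3.54-fold, adjusted p = 0.0414 by limma), so the second was called. Without DBA replicate 1 both passed by limma (adjusted p = 0.0155 and 0.00782). Leaving out any other single array gave adjusted p of 0.0694 to 0.244 at the second, with differences between -1.88 and -1.71.

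H2-K1 encodes the classical K heavy chain. Its brightest probe set, 1425336_x_at, read 12.57, 12.25 and 12.13 in AKR F1 tumours, against 13.19, 13.76 and 13.63 in DBA F1 tumours. The next, 1427746_x_at, read 11.19, 11.05 and 10.61 in AKR F1 tumours, against 12.01, 12.90 and 12.70 in DBA F1 tumours. These crosses did not overlap, and DBA replicate 1 was again the lowest of its cross. The third, 1451931_x_at, averaged 10.93 (SD 0.10, n = 3) in AKR F1 tumours, against 12.29 (SD 0.37, n = 3) in DBA F1 tumours, without overlap. The dimmest, 1450534_x_at, read 7.94, 8.70 and 7.80 in AKR F1 tumours, against 8.67, 9.26 and 9.09 in DBA F1 tumours. Here the crosses overlapped, because AKR replicate 2 stood above DBA replicate 1. Differences of the 4 probe sets ran from -1.59 to -0.86, and none passed by limma (adjusted p = 0.0684 to 0.138), while all 4 had an unadjusted p under 0.05, as did 26.1% of all probe sets. Without DBA replicate 1, 3 of them passed, where 1.16% of all probe sets did.

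All 4 H2-K1 probe sets and 7 of the 9 H2-D1 probe sets have names ending in x_at, the manufacturer's mark for probes that can also match other transcripts. The probe set 1424948_x_at, annotated to several heavy chain genes and so outside the rule, differed by -1.33 (adjusted p = 0.0837 by limma). The B2m probe sets end in a_at, which marks probes shared only by transcripts of 1 gene.

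H2-D1 encodes the classical D heavy chain, and its 9 probe sets fell into distinct patterns. At 1425614_x_at, AKR F1 tumours read 6.19, 6.24 and 6.21, against 10.87, 12.11 and 12.09 in DBA F1 tumours. At 1452544_x_at, AKR F1 tumours read 7.96, 7.52 and 8.08, against 11.74, 12.85 and 12.56 in DBA F1 tumours. At 1427651_x_at, AKR F1 tumours read 7.09, 6.69 and 7.20, against 10.52, 11.36 and 11.24 in DBA F1 tumours. These were the 3 H2-D1 calls, with crosses more than 3 log2 units apart and an AKR level at the first that lies within the range of the Y-linked genes. As read, they were 44.4-fold, 23.1-fold and 16.6-fold lower in AKR F1 tumours (log2 difference -5.47, -4.53 and -4.05, SE 0.329, 0.304 and 0.254, adjusted p = 0.00552, 0.0069 and 0.00552 by limma). Where the AKR signal was background, as it may be at the first, the fold of signal is only a lower bound. With a sequence variant under the probes, it would bound no fold of RNA. Among all 22626 probe sets, ranked from the most negative difference, the 3 calls stood at places 1, 3 and 4. They passed without AKR replicate 3, DBA replicate 1 or DBA replicate 2, and missed with adjusted p of 0.0506 to 0.0775 by limma without AKR replicate 1, AKR replicate 2 or DBA replicate 3.

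A single H2-D1 probe set pointed the other way. At 1450170_x_at, AKR F1 tumours read 7.97, 6.62 and 8.22, against 4.57, 5.07 and 4.92 in DBA F1 tumours. The crosses did not overlap, AKR replicate 2 was the lowest of its cross, and its value and those of the DBA arrays lie within the range of the Y-linked genes. The difference as read was 2.75 (SE 0.409, 6.72-fold higher in AKR F1 tumours), and it did not pass by limma (adjusted p = 0.0684). If the DBA values are background, this is a lower bound on the difference in signal. With a sequence variant under the probes, it would bound no difference in RNA. Without AKR replicate 2 the difference as read was 3.24 and passed (adjusted p = 0.0484 by limma).

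The remaining 5 H2-D1 probe sets differed by -1.92 to -0.43, and none passed. The brightest, 1425545_x_at, read 12.03, 11.73 and 11.92 in AKR F1 tumours, against 12.66, 13.22 and 13.26 in DBA F1 tumours. The difference of this brightest H2-D1 probe set, -1.15 (SE 0.193, adjusted p = 0.0837 by limma), stood beside -1.21 at the brightest H2-K1 probe set. At 1451784_x_at, AKR F1 tumours read 11.97, 11.52 and 11.62, against 12.34, 13.02 and 13.13 in DBA F1 tumours (-1.13, adjusted p = 0.0924 by limma). At 1451683_x_at, AKR F1 tumours averaged 8.90 (SD 0.27, n = 3), against 10.67 (SD 0.43, n = 3) in DBA F1 tumours (-1.77, adjusted p = 0.0661 by limma). DBA replicate 1 was the lowest DBA array at each of these. Of the 2 H2-D1 probe sets whose names carry no x, 1426324_at read 8.29, 7.70 and 8.07 in AKR F1 tumours, against 9.22, 10.52 and 10.07 in DBA F1 tumours. The other of that pair, 1451934_at, read 5.03 to 5.25 in AKR F1 tumours and 5.51 to 5.74 in DBA F1 tumours, all within the range of the Y-linked genes. The first of these differed by -1.92 (adjusted p = 0.0837 by limma) and 1451934_at by -0.43 (adjusted p = 0.128 by limma). All 9 H2-D1 probe sets separated the crosses without overlap, against 39.2% of all probe sets, but in both directions.

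Whether probe sets of 1 gene differed unequally was tested on each probe set minus the mean of the gene's other probe sets on the same array. For H2-D1, 8 of 9 such contrasts separated the crosses completely, with an exact two-sided permutation p = 0.1, the smallest that 3 against 3 arrays allow, and adjusted p = 0.136 over the 19 contrasts of all genes. They ran from -3.95 at 1425614_x_at to 5.31 at 1450170_x_at (AKR minus DBA). For H2-K1, 2 of 4 did so, at -0.45 for 1427746_x_at and 0.53 for 1450534_x_at. The contrast between the B2m probe sets was 0.25 in size and that of the Mr1 probe sets 0.27. Both also separated the crosses completely (exact two-sided permutation p = 0.1, adjusted p = 0.136). The contrast of the Cd1d1 probe sets was 0.02 and overlapped (exact two-sided permutation p = 1). In all, 14 of the 19 contrasts had p = 0.1 by this exact test. Since 0.1 is the floor of this exact test, it could not pass any contrast at 0.05, and the values stand as a description.

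**Figure D2:**
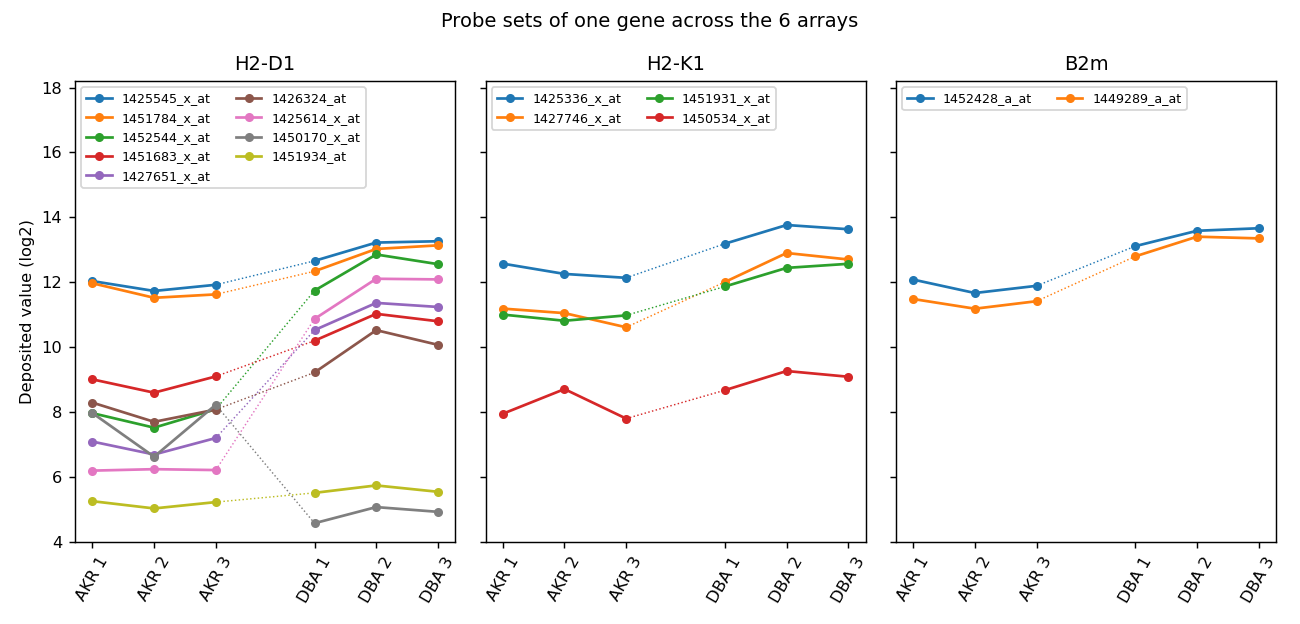
Deposited log2 value (vertical axis) of every probe set of H2-D1, H2-K1 and B2m on the 3 AKR and 3 DBA arrays (horizontal axis), with 1 line per probe set and the step between crosses dotted. The H2-D1 lines cross, with means from 5.47 log2 units higher to 2.75 lower on the DBA arrays than on the AKR arrays, while the B2m lines run side by side.

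H2-M3, which presents peptides that start with formylated methionine, as made by bacteria and mitochondria, read 7.97, 7.55 and 7.94 in AKR F1 tumours, against 8.19, 8.71 and 8.77 in DBA F1 tumours. The crosses did not overlap, and the H2-M3 difference was -0.74 (SE 0.203, adjusted p = 0.119 by limma). Mr1, which displays vitamin B metabolites to mucosal-associated invariant T cells, read 7.73, 7.50 and 7.65 in AKR F1 tumours, against 7.99, 8.33 and 8.85 in DBA F1 tumours at 1421899_a_at. Its crosses were apart there and overlapped at 1421898_a_at, where AKR replicate 1 (7.92) stood above DBA replicate 1 (7.78). The Mr1 differences were -0.76 (adjusted p = 0.126) and -0.49 (adjusted p = 0.223 by limma).

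Cd1d1, which displays lipids to natural killer T cells, had overlapping crosses at both probe sets. Its brighter one read 8.86, 9.12 and 8.81 in AKR F1 tumours, against 9.05, 8.79 and 9.47 in DBA F1 tumours, a difference of -0.18 (SE 0.197, adjusted p = 0.544 by limma). The dimmer one, 1449130_at, averaged 6.91 (SD 0.24, n = 3) in AKR F1 tumours, against 7.11 (SD 0.35, n = 3) in DBA F1 tumours (-0.20, adjusted p = 0.532 by limma). Fcgrt, the heavy chain of the neonatal Fc receptor, which recycles IgG and albumin, read 8.90, 7.74 and 8.57 in AKR F1 tumours, against 9.03, 8.68 and 8.78 in DBA F1 tumours. AKR replicate 2 stood lowest, and the Fcgrt difference of -0.43 (adjusted p = 0.339 by limma) was -0.10 without it. H2-Q10, a secreted heavy chain made mainly by liver, read 5.45, 5.37 and 5.43 in AKR F1 tumours, against 5.30, 5.34 and 5.05 in DBA F1 tumours. All of these H2-Q10 values lie in the range of the Y-linked genes, and the difference of 0.18 was no larger than the 0.23 median of probe sets at that level. These 7 probe sets of the narrower family members held 0 calls by limma and 2 at an unadjusted p under 0.05, against 26.1% of all probe sets, and their median difference was -0.43, against 0.05 over all probe sets.

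**Figure D3:**
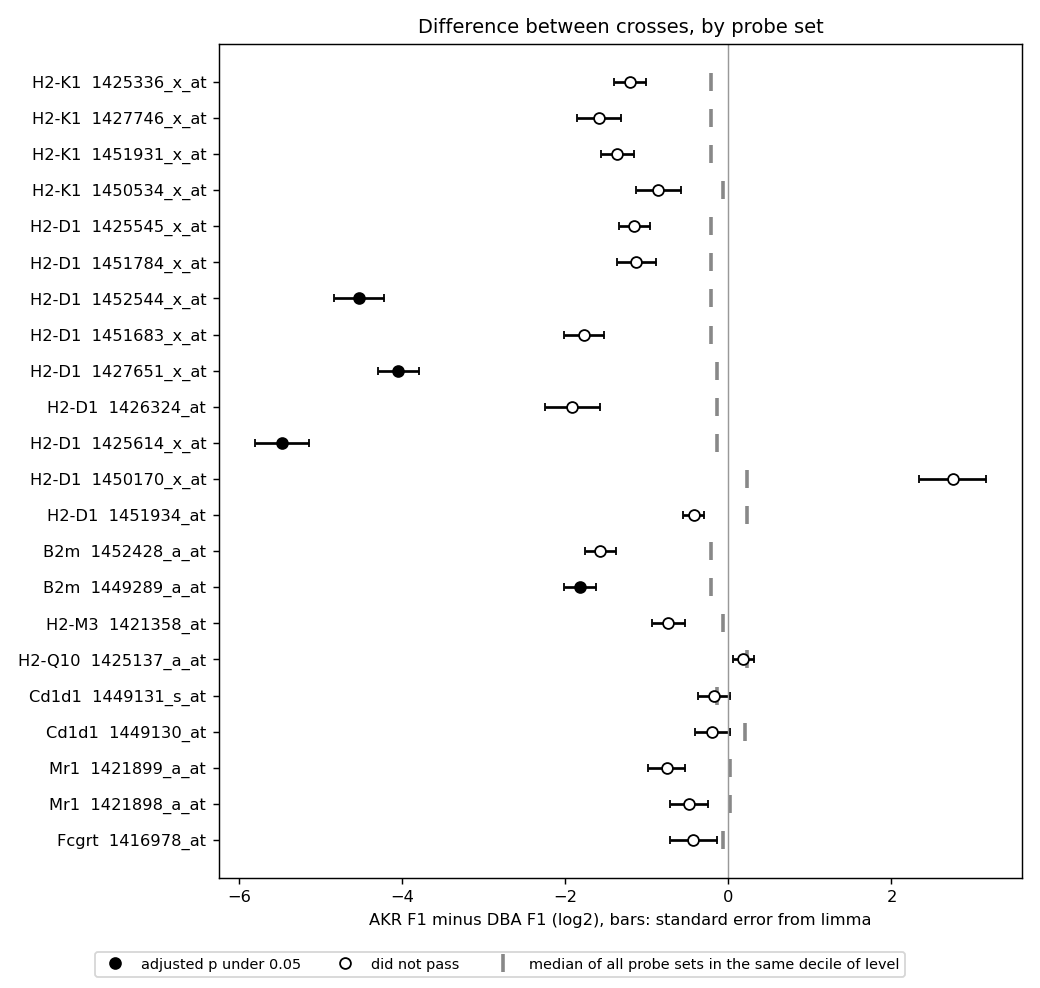
AKR minus DBA log2 difference (horizontal axis) of each member probe set (rows), with standard errors from limma as bars and the median difference of all probe sets in the same decile of mean level as a grey tick. Filled points are the 4 that passed adjusted p 0.05, 3 of H2-D1 and 1 of B2m.

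DBA replicate 1 was the lowest DBA array at 15 of 15 probe sets of H2-K1, H2-D1 and B2m, where it was lowest at 29.3% of all probe sets. The probe sets share the same 3 RNA samples and in part the same transcripts, so they are not independent. The mean of 17 interferon-induced genes was also lowest on DBA replicate 1, at 8.93, 10.13 and 9.56 on the DBA arrays. The mean of 4 adipocyte markers was highest there, at 9.18, 6.45 and 7.05 on the DBA arrays. Without that array, which was also highest in skeletal muscle markers, B2m at 1449289_a_at differed by -2.02, against -1.82 with it.

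Among the genes that load class I molecules, 12 of 13 were measured, 11 had a negative difference, and 0 passed by limma over all probe sets, where 8 had an unadjusted p under 0.05. Crosses did not overlap at 9 of the 12, all lower in AKR F1 tumours. Without DBA replicate 1, 3 passed, where 1.16% of all probe sets did. The list's median was -0.72, against 0.05 over all probe sets and -0.21 in the brightest decile, which holds the list's median level. The immunoproteasome subunit gene Psmb8 read 9.68, 9.21 and 9.36 in AKR F1 tumours, against 10.47, 11.65 and 11.21 in DBA F1 tumours (difference -1.69, adjusted p = 0.0837 by limma). The transporter gene Tap1 differed by -1.72 (adjusted p = 0.0837), the immunoproteasome subunit gene Psmb9 by -1.51 (adjusted p = 0.105) and the peptide-trimming enzyme gene Erap1 by -0.97 (adjusted p = 0.103 by limma). Over all probe sets, 0.0972% were called in either direction, 26.1% had an unadjusted p under 0.05 and 15.8% had non-overlapping crosses lower in AKR F1 tumours.

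Regulators of class I transcription had a median near that of all probe sets, at -0.10. Of 24 measured genes, 14 were negative and 0 were called by limma. An unadjusted p under 0.05, held by 26.1% of all probe sets, was found for 4 of the 24. Those with the smallest p were all negative. They were the kinase gene Jak1 (-0.98, adjusted p = 0.0774), the factor genes Irf9 (-1.24, adjusted p = 0.0837) and Irf7 (-1.19, adjusted p = 0.111), and Stat2 (-0.80, adjusted p = 0.126 by limma). Irf1, an interferon-induced activator of class I promoters, differed by -0.16. Of the 17 measured interferon-induced genes, all had negative differences (median -1.75), and 2 passed by limma, Ifi27l2a (-2.45) and Oas1a (-2.15). Without DBA replicate 1 the number was 13, where 1.16% of all probe sets passed. With DBA replicate 2 left out it was 1, and with any other array left out it was 0. On all arrays, 16 of the 17 had an unadjusted p under 0.05, against 26.1% of all probe sets. Neither Oasl2 (-3.09, adjusted p = 0.0532) nor the GTPase gene Iigp1 (-3.18, adjusted p = 0.0596 by limma) passed.

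Of 13 measured genes for other class I and class I-like heavy chains, 9 had a positive difference and 4 a negative one. The median was 0.18, against 0.23 over all probe sets in the decile of level that holds the list's median level. Of the 13, 10 were dimmer than the median probe set and 0 passed by limma. An unadjusted p under 0.05 was found for 4 of them, against 26.1% of all probe sets. The 4 with the smallest p were Cd1d2, a close relative of Cd1d1 (0.38), H2-T3 (0.29), Procr, the endothelial protein C receptor gene (-0.48), and H2-M10.1 (0.41). Class II genes, whose products present peptides taken up from outside the cell, had a median of -0.33 over 9 genes. Of the 9, 0 were called by limma and 0 had an unadjusted p under 0.05, against 26.1% of all probe sets. AKR and DBA values of H2-Ab1 (-0.71), H2-Eb1 (-0.87) and H2-Aa (-0.95) overlapped, while Ciita, the class II activator gene, differed by 0.25. H2-Ea, a class II gene outside the list, differed by -0.51 (adjusted p = 0.217 by limma), and its crosses did not overlap. H2-Aa read 11.40, 9.85 and 11.90 on the DBA arrays, so that replicate 2 was lowest, where the mean of the 4 H2-K1 probe sets was highest (12.09).

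Genes for receptors that bind class I had a median of 0.16 over 14 measured genes, all dimmer than the median probe set. Over all probe sets in the decile that holds the list's median level, the median was 0.12. Of the 14, 0 were called by limma and 1 had an unadjusted p under 0.05, against 26.1% of all probe sets. The 4 with the smallest p were Cd8b1 (0.32), Cd160 (0.28), Klrk1 (0.34) and Klra1 (0.26), the first a chain of the CD8 coreceptor. The mean of 9 T and NK cell markers ran from 6.72 to 7.06 on the AKR arrays and from 6.53 to 6.86 on the DBA arrays. Of the 9, 0 were called by limma and 2 had an unadjusted p under 0.05, against 26.1% of all probe sets. The mean of 7 markers of all leukocytes ran from 8.05 to 8.96 on the AKR arrays and from 8.61 to 9.32 on the DBA arrays. Of the 7, 0 were called by limma and 1 had an unadjusted p under 0.05, against the same 26.1%. The mean of these leukocyte markers was 9.26, 8.61 and 9.32 on the 3 DBA arrays, lowest on replicate 2. The part of leukocytes in the class I difference was not tested.

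**Figure D4:**
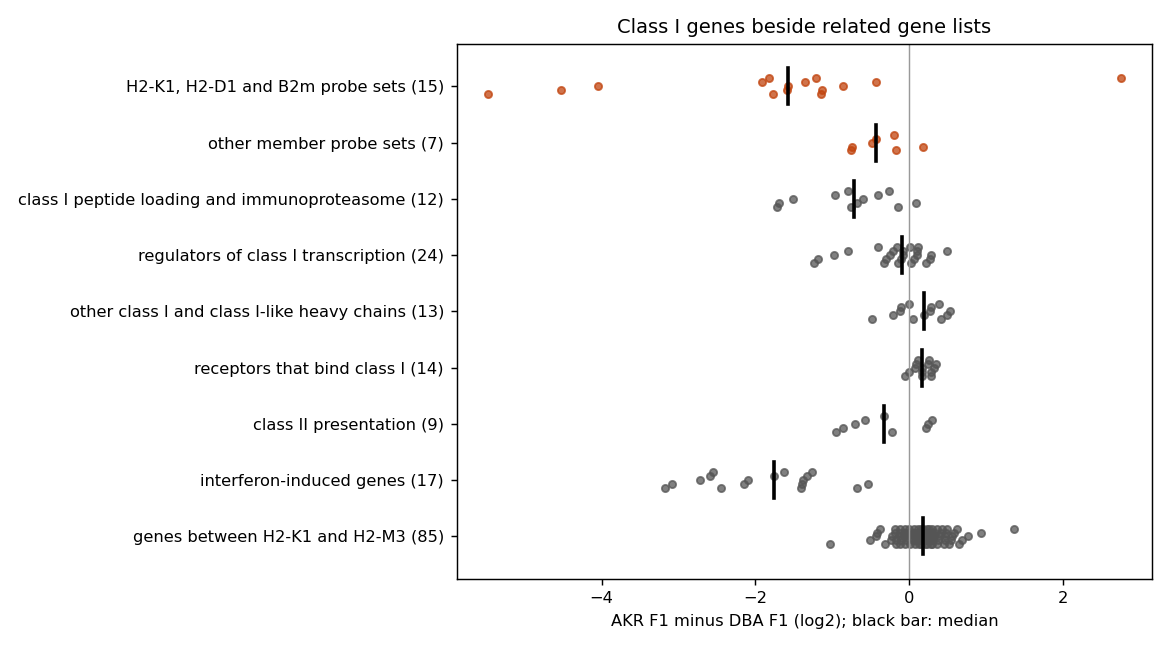
AKR minus DBA log2 differences (horizontal axis) of the class I and B2m probe sets and of the genes of each related list (rows, with the number plotted in brackets, 1 probe set per gene in the lists), with medians as black bars. The medians of H2-K1, H2-D1 and B2m probe sets (-1.57), loading genes (-0.72) and interferon-induced genes (-1.75) lie left of 0. So do those of the other member probe sets (-0.43), class II genes (-0.33) and regulators (-0.10). Those of other heavy chains (0.18), receptors (0.16) and genes between H2-K1 and H2-M3 (0.17) lie right.

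The H2 heavy chain genes lie within 1 stretch of chromosome 17 that also holds many genes with no part in antigen presentation. Between H2-K1 and H2-M3, 85 measured genes were neither members nor in any list, among them the class II gene H2-Ea. Of these, 60 had a positive difference and 25 a negative one, where 45.4% of all probe sets were negative. The median was 0.17, against 0.05 over all probe sets. By limma 0 passed, and 17 had an unadjusted p under 0.05, against 26.1% of all probe sets. Crosses did not overlap at 30 of the 85, against 39.2% of all probe sets. The 3 with the smallest p were Agpat1, an enzyme gene of phospholipid synthesis (0.93, adjusted p = 0.0706), the collagen receptor gene Ddr1 (0.65, adjusted p = 0.093) and Psors1c2 (0.62, adjusted p = 0.101 by limma), all with higher values in AKR F1 tumours.

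Genes with the profile most like B2m were sought by the root mean square difference between profiles over the 6 arrays, each centred on its own mean, among 1984 genes of sufficient spread. The nearest to the brighter B2m probe set were Cav1, the main protein gene of caveolae (0.129 log2 units), Ifitm3, which blocks entry of viruses (0.146), Rtp4 (0.149), Parp14 (0.150) and the guanylate-binding protein gene Gbp7 (0.150). Cav1 read 8.64, 7.94 and 8.53 in AKR F1 tumours, against 9.69, 10.13 and 10.04 in DBA F1 tumours. It lies on chromosome 6 and did not pass (-1.58, adjusted p = 0.0661 by limma). The nearest to the brightest H2-K1 probe set, among 3595 genes, were Bnip2 (0.113), the RNA sensor gene Dhx58 (0.137), Ccn1 (0.151), Noct (0.160) and Degs1 (0.170). These likenesses are descriptions over 6 arrays in 2 crosses, and each such gene differs between the crosses much as the member does.

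Class I promoters are known to carry an NF-kappa-B site, an interferon-stimulated response element and a cyclic AMP response element-like site ahead of a CCAAT box. B2m, H2-K1 and H2-D1 have the most negative median differences among the member genes. H2-M3 holds 3 of the kinds of letters searched, including a run chosen after its stretch was seen, so its choice is partly circular. H2-T23 holds as many of the kinds listed beforehand as H2-M3 does, and its stretch is not shown. For B2m, H2-K1, H2-D1 and H2-M3, the stretches before the gene that hold such letters are shown. They are the RefSeq reference of assembly GRCm38.p6 (C57BL/6J), not of the strains used here, run 5′ to 3′ along the gene, and have the matched letters in capitals.
B2m: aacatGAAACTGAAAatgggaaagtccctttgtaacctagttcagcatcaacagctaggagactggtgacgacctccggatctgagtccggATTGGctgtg
H2-K1: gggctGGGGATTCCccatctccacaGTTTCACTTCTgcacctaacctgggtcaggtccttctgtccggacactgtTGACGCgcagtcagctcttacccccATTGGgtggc
H2-D1: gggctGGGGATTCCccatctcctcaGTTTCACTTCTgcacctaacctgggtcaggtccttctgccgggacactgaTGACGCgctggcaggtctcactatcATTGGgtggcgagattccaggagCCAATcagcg
H2-M3: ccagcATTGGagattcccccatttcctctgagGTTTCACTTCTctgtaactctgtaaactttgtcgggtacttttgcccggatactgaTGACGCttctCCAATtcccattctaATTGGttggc
They lie at chr2:122147543-122147643 on the plus strand, chr17:34000354-34000463 on the minus strand, chr17:35262918-35263050 on the plus strand and chr17:37270100-37270222 on the plus strand. The first 110 bases of the H2-D1 stretch match the H2-K1 stretch at 99 positions.

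Letters were searched on both strands of the 250 bases before each annotated start, in 32851 promoters, and 8 of the 9 genes had one. The NF-kappa-B letters GGGGATTCC stood before H2-K1 and H2-D1 and in 0.213% of all promoters, and GGGANTTCC before no member and in 1.43%. The response element core, GAAA with any 2 bases before a second GAAA, stood before B2m and H2-T23 and in 2.98% of all. No other form of that element was listed beforehand, so genes without this core may still hold one. GTTTCACTTCT, the longest run shared by the H2-K1, H2-D1 and H2-M3 stretches and so chosen after they were seen, stood before those genes and H2-Q10 and in 0.0517% of all. TGACGC stood before H2-K1, H2-D1 and H2-M3 (6.12% of all), TGACGT before Fcgrt (6.47%), and CCAAT before 5 members, namely H2-K1, H2-D1, B2m, H2-T23 and H2-M3 (33.8%). Such matches are descriptions of the reference letters, and the values of H2-Q10, which holds 1 of them, lay in the range of the Y-linked genes.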

How the data were processed

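The authors deposited log2 values of 22690 probe sets for 3 AKR F1 and 3 DBA F1 tumour arrays. Per the submitters' processing notes, MAS5 and RMA were used, and which of them gave these log2 values, with what background correction, is not stated. The 64 control probe sets were left out. Groups came from the source names, and replicate numbers only name arrays. The 2 crosses were tested by limma 3.58.1 under R 4.3.3 (lmFit, eBayes, two-sided, Benjamini-Hochberg over 22626 probe sets, adjusted p 0.05), as AKR minus DBA, and the test was checked on simulated data. Symbols came from the platform annotation, in which 20380 probe sets had 1 symbol. Lists used the brightest probe set of each gene. All member probe sets were named, with the 4 list genes of smallest p, the 3 such genes between H2-K1 and H2-M3 and the 5 most alike; Irf1 and genes given for context were added after their values were seen. Members and lists were chosen with earlier results of these data known. Precision is limited by 3 arrays per cross. Alternatives were quantile normalization, median centring, a filter on dim probe sets, another prior, array weights, adjusted p 0.10 and leaving out arrays. Figures used matplotlib 3.10.9.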

Additional observations from a re-analysis of the deposited data

How the results depend on the processing

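Against 4 member probe sets called, quantile normalization gave 4, centring on the array median 5 and a trended and robust prior 5. Under those settings 0.141% to 0.159% of all probe sets passed. The count was 9 among probe sets brighter than the median, of which 0.902% passed, and 13 at adjusted p 0.10. Of those 13, 12 were lower in AKR F1 tumours. The share of all probe sets at 0.10 was not counted, but 1 of the 13, H2-D1 1451784_x_at, stood only at place 566 by p among 22626. The count was 17 with array weights (where 16.4% of all probe sets passed) and 15 with both AKR replicate 2 and DBA replicate 1 left out (where 2.90% did). Leaving out each array in turn gave 0 to 12, where 0.0044% to 1.16% of all probe sets passed. Over 260 member differences recomputed, 1 turned sign: that of Cd1d1 at 1449131_s_at was 0.0076 without DBA replicate 3, and -0.33 once DBA replicate 2 was left out. The exact test of unequal change cannot go below p = 0.1, so it could pass no contrast (0 passed) and was not run under other settings. No paired analysis was possible because the labels give no replicate numbers shared by the crosses. Signal over background is unknown, so differences of dim probe sets may be compressed.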

Other observations

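The 5 probe sets annotated to a member together with another gene lay outside the rule and are given as probe sets of no single gene. The probe set 1451593_at read 8.61, 8.34 and 8.57 in AKR F1 tumours, against 9.78, 10.63 and 10.44 in DBA F1 tumours, a difference of -1.78 (adjusted p = 0.0637 by limma). The probe set 1449556_at read 11.11, 11.09 and 11.66 in AKR F1 tumours, against 11.87, 12.33 and 12.29 in DBA F1 tumours (-0.87, adjusted p = 0.103 by limma). With 1424948_x_at, 3 of the 5 had negative differences and crosses that did not overlap, against 15.8% of all probe sets. The crosses also did not overlap at 1419658_at, where AKR values were higher (0.33), and did at 1422348_at (0.63), which read 7.22 on AKR replicate 2 against 5.58 to 5.93 on the other arrays. None of the 5 passed by limma.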
